A study of Mus musculus with 8 samples.

Results

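The miR-193 and miR-365 genes of the mouse give 4 mature miRNAs that were detected in these kidneys: mmu-miR-193a-3p, mmu-miR-193a-5p, mmu-miR-193b-3p and mmu-miR-365-3p, written without the mouse prefix from here on. They were taken by name from the non-control entries of the scanner files and are 4 of the 1881 mouse miRNAs on the array. The scanner software's detection call was positive for each of them on all 8 arrays. They were picked with earlier results of the same IRI and sham arrays known. Their differences between IRI and sham are therefore given as a description, with no p-value printed. The intervals and calls given for them come from the fit over all tested miRNAs and are no test of them.

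Kidney RNA came from 2 groups of male C57BL/6 mice aged 9 weeks, with 4 samples each. For ischemia-reperfusion injury (IRI), which models acute kidney injury, mice lost the right kidney while the vessels of the left kidney were clamped for 25 or 45 min and released, and tissue was taken 12 or 24 h later. Sham mice had a midline incision and kept both kidneys, so nephrectomy and injury cannot be told apart here. The labels do not say which clamp and harvest time belongs to IRI 1, 2, 3 or 18, nor that each sample is a separate animal. Errors therefore cover the spread between these samples only. Each sample was hybridised to a single-colour Agilent miRNA microarray, on which a probe's fluorescence stands for the amount of its miRNA.

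A miRNA is a short RNA cut from one arm of a folded hairpin, the 5p or the 3p arm, and it lowers the output of mRNAs that pair with its seed, bases 2 to 8. The mouse genome carries the miR-193 and miR-365 hairpins as neighbouring pairs, Mir193a with Mir365-2 and Mir193b with Mir365-1, and such neighbours are often made from a shared primary transcript. The miR-193 family is known for targets in growth and survival, among them the anti-apoptotic gene MCL1 and the urokinase gene PLAU in human cells. In the mouse, raised miR-193a in podocytes, the filter cells of the glomerulus, lowers the podocyte factor WT1 and scars the glomerulus. The miR-193b-365 pair has been reported in mice as a regulator of brown fat differentiation.

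The sequences below show which of these miRNAs share a seed and which differ elsewhere. They are from RefSeq (GRCm38.p6), 5′ to 3′, with the seed in capitals, and all 7 mature names of the 4 hairpins matched its miRNA entries.
miR-193a-3p: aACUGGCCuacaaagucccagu
miR-193b-3p: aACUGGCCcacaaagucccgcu
miR-365-3p: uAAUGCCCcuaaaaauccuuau
miR-193a-5p: uGGGUCUUugcgggcaagauga

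The seed ACUGGCC was carried by miR-193a-3p and miR-193b-3p and by no other of the 1679 mature mouse names in that table. The seeds of miR-365-3p (AAUGCCC) and miR-193a-5p (GGGUCUU) each occurred under 1 name. miR-193a-3p and miR-193b-3p differed at 3 of 22 bases, none of them in the seed: U9C, A20G and G21C, counted from 1 at the 5′ end, with the base of miR-193a-3p first. miR-193a-5p shares no seed with its sister arm miR-193a-3p.

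The hairpins of the paralogs Mir193a and Mir193b show where both arms lie, here in capitals.
Mir193a: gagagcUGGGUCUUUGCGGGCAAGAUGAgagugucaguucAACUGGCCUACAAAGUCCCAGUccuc
Mir193b: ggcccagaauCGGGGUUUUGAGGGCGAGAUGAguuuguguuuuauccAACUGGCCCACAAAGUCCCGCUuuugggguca

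In GRCm38.p6, Mir193a lies at chr11:79711969-79712034 on the plus strand. Mir365-2 follows on the same strand at chr11:79726400-79726511, after a gap of 14365 bases. The RefSeq table places no other gene over either hairpin, and the nearest protein-coding genes on the 2 sides are Rab11fip4 and Utp6. Mir193b lies at chr16:13449523-13449601 on the plus strand, and Mir365-1 at chr16:13453840-13453926 after a gap of 4238 bases. Both chromosome 16 hairpins lie within the long non-coding RNA genes Gm32817 and Gm53058, between the protein-coding genes Mrtfb and Parn. The mature miR-365-3p is identical from chromosome 11 and chromosome 16, so the array cannot tell its 2 sources apart. By contrast, miR-193a-3p and miR-193a-5p come from chromosome 11 alone and miR-193b-3p from chromosome 16 alone.

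Signals below are background-subtracted fluorescence summed over the probes of a miRNA and scaled between arrays to the 75th percentile of the 317 miRNAs detected on all arrays. They have no absolute unit, and they are compared between samples for 1 miRNA at a time, since probes differ in brightness. The limma fit took in 379 miRNAs, those with a positive call on all 4 IRI or all 4 sham arrays. All 8 arrays shared 1 slide and 1 scan, with IRI in slide row 2 and sham in slide row 1, so slide row and group cannot be told apart. Detected miRNAs numbered 393 to 447 on IRI arrays and 327 to 379 on sham arrays, and the unscaled 75th percentiles were 445 to 562 on IRI arrays and 356 to 456 on sham arrays. The scaling divides out this brighter signal of the IRI arrays, and unscaled values are given below for the members and the lists.

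All 4 miRNAs had lower mean scaled signals in IRI kidneys than in sham kidneys, with log2 changes of -0.74 to -0.45. miR-193a-3p and miR-365-3p lay near the lower end of all changes, and miR-193b-3p was less far down. In the fit over all 379 miRNAs, all 4 passed an adjusted p of 0.05 with a lower IRI signal. Of all tested miRNAs, 36.7% passed with a lower signal and 48.8% in either direction. On 3 of the 4, every IRI array lay below every sham array, which held for 35.9% of all tested miRNAs. Without scaling between arrays, 0 of the 4 passed and 0 kept the groups apart. Of all tested miRNAs, 53 passed as higher and 1 as lower without scaling, against 46 as higher and 139 as lower with scaling. The members were chosen on this contrast, so nothing is read from these counts. In whole tissue, fewer cells of a type and less of a miRNA per cell cannot be told apart.

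miR-193a-3p, the strand that carries the shared miR-193 seed, had scaled signals of 840, 627, 663 and 696 in IRI kidneys 1, 2, 3 and 18, against 1219, 1071, 1282 and 1118 in sham kidneys 1, 2, 3 and 6. The groups did not overlap, and the highest IRI value, that of IRI 1, stayed well below the lowest sham value, that of sham 2. The mean was 706 ± 93.1 in IRI kidneys and 1172 ± 95.8 in sham kidneys (SD, n = 4 each). The log2 change was -0.74 with a standard error of 0.11 and a 95% interval of -0.98 to -0.49. IRI kidneys thus held 60.0% of the sham signal, the change ranked 3 of 379 from the lowest, and the median change of all tested miRNAs was -0.11.

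miR-365-3p, whose known targets include the cell cycle gene cyclin D1 in human cells, gave a pattern close to that of its chromosome 11 neighbour. Its scaled signals were 538, 439, 460 and 476 in IRI kidneys 1, 2, 3 and 18, against 842, 729, 811 and 756 in sham kidneys 1, 2, 3 and 6. Here too the groups were apart, with IRI 1 the highest of its group. The mean was 478 ± 42.9 in IRI kidneys and 785 ± 51.5 in sham kidneys (SD, n = 4 each). The log2 change of miR-365-3p was -0.72 with a standard error of 0.08 and a 95% interval of -0.91 to -0.52, which left 60.9% of the sham signal and ranked 4 of 379.

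miR-193b-3p, the chromosome 16 paralog with the same seed, had a smaller fitted change and a dimmer signal on its own probes. It had scaled signals of 54.9, 51.6, 42.8 and 41.3 in IRI kidneys 1, 2, 3 and 18, against 65.1, 57.5, 79.5 and 59.2 in sham kidneys 1, 2, 3 and 6. The groups did not overlap, but the highest IRI array and the lowest sham array were only 2.56 signal units apart. Sham 3 stood above the other sham arrays. The mean was 47.6 ± 6.64 in IRI kidneys and 65.3 ± 9.99 in sham kidneys (SD, n = 4 each). The log2 change of miR-193b-3p was -0.45 with a standard error of 0.14 and a 95% interval of -0.77 to -0.14, with 73.0% of the sham signal left and a rank of 65 of 379. The adjusted p of miR-193b-3p crossed 0.05 when sham 1, sham 3, IRI 3 or IRI 18 was left out, with changes of -0.53 to -0.35 over all arrays left out in turn.

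miR-193a-5p, the other arm of the Mir193a hairpin, was near the limit of measurement. Its scaled signals were 29.4, 16.8, 8.81 and 12.7 in IRI kidneys 1, 2, 3 and 18, against 37.1, 28.3, 39.1 and 24.6 in sham kidneys 1, 2, 3 and 6. The groups overlapped, because IRI 1 lay above sham 2 and sham 6. The mean was 16.9 ± 8.92 in IRI kidneys and 32.3 ± 6.95 in sham kidneys (SD, n = 4 each). Values below 17.3, the 5th percentile of detected signals, were raised to that floor before the log, which affected 3 of the 4 IRI arrays. The fitted log2 change of -0.69, with a standard error of 0.22, is therefore no measured size. With the floor set at 2 times this value the fitted change was -0.07, and with the floor halved it was -1.05.

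**Figure D1:**
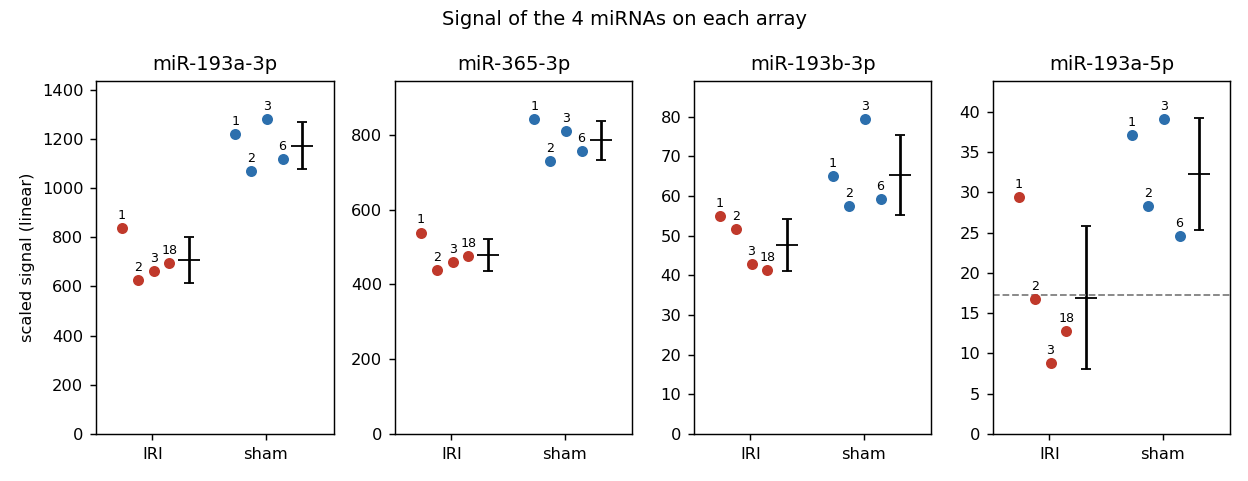
Scaled signal (linear axis from 0) of each miRNA on each array, with IRI in red on the left of each panel and sham in blue on its right; numbers name the sample, black marks the mean and SD of 4 arrays, and the dashed line is the floor of 17.3. The IRI and sham arrays are apart for miR-193a-3p, miR-365-3p and, by 2.56 units, miR-193b-3p, and they overlap for miR-193a-5p.

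IRI 1 was the highest of the IRI arrays for each of the 4 miRNAs. Summed over the 4, the scaled signal was 1462, 1135, 1174 and 1225 in IRI kidneys 1, 2, 3 and 18, against 2164, 1885, 2212 and 1958 in sham kidneys 1, 2, 3 and 6. The groups did not overlap, and the change of the sum was -0.72 on the log2 scale. This sum follows miR-193a-3p and miR-365-3p, whose probes gave nearly all of its signal.

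The remaining arms of these hairpins, miR-193b-5p, miR-365-1-5p and miR-365-2-5p, were called detected on 0 of 8 arrays. Each of their probes had 0 of 60 spots well above background in IRI kidneys and 0 of 60 in sham kidneys. miR-365-1-5p and miR-365-2-5p share the seed GGGACUU and, unlike miR-365-3p, differ between the 2 loci, at 3 of 23 bases (U10C, G11A and A19C, with the base of miR-365-1-5p first). These strands would separate the chromosome 11 and chromosome 16 sources of miR-365, but at this signal neither gave a level in either group.

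The array reads each miRNA through probes of different lengths, which pair with its 3′ end, so each change can be read separately for each probe. The longest probes of the paralogs and of miR-365-3p and miR-193a-5p, 5′ to 3′, show how much of each miRNA was read.
miR-193a-3p probe: actgggactttgtaggc
miR-193b-3p probe: agcgggactttgtgggc
miR-365-3p probe: ataaggatttttaggggcatta
miR-193a-5p probe: tcatcttgcccgca

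The probes for miR-193a-3p and miR-193b-3p above pair with bases 6 to 22, which takes in all 3 positions at which these paralogs differ. Each has 3 mismatches to the other paralog, and how far miR-193a-3p hybridises to miR-193b-3p probes was not tested. The 16-base and 17-base probes of miR-193a-3p gave log2 changes of -0.77 and -0.72, with 60 of 60 spots well above background in IRI kidneys and 60 of 60 in sham kidneys. The 21-base and 22-base probes of miR-365-3p both gave -0.72 on the log2 scale, and its spots were likewise all well above background. For these pairs of probes, the change read by either probe was within the standard error of the miRNA's own change.

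For miR-193b-3p, the 16-base and 17-base probes gave log2 changes of -0.45 and -0.46. Its shorter probe had 47 of 60 spots well above background in IRI kidneys and 50 of 60 in sham kidneys, and its longer probe had all 60 in either group. Repeat spots of a probe on 1 array varied with a coefficient of variation of 6.69% to 20.4% for miR-193b-3p, against 1.35% to 7.61% for miR-193a-3p and 2.20% to 5.61% for miR-365-3p. miR-193b-3p was thus read with more spot error.

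miR-193a-5p was read by 4 probes of 11 to 14 bases, of which only the 13-base and 14-base probes gave signal. The 11-base and 12-base probes had negative mean signals and 0 of 32 spots well above background in IRI kidneys and 0 of 32 in sham kidneys. The 13-base probe averaged 10.4 ± 3.69 in IRI kidneys and 17.7 ± 2.34 in sham kidneys (SD, n = 4 each), with 5 of 28 and 10 of 28 spots well above background in IRI and sham. The 14-base probe averaged 12.9 ± 2.66 in IRI kidneys and 22.5 ± 3.39 in sham kidneys (SD, n = 4 each), with 11 of 28 and 21 of 28 spots well above background in IRI and sham. On the 14-base probe alone, the IRI arrays (10.8 to 16.5) lay below the sham arrays (19.4 to 26.1). The 13-base probe overlapped between groups, through IRI 1 at 15.7 and sham 2 at 15.0.

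**Figure D2:**
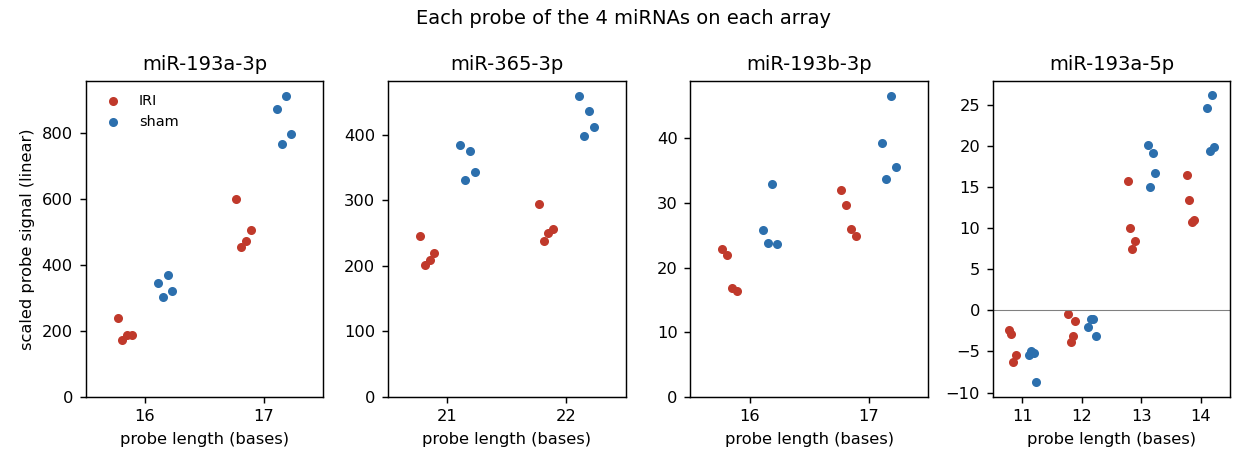
Scaled signal (linear axis) of every probe of the 4 miRNAs by probe length in bases, 1 point per array, IRI in red on the left of each length and sham in blue on its right. IRI arrays lie below sham arrays on both probes of miR-193a-3p, miR-365-3p and miR-193b-3p, while the 11-base and 12-base probes of miR-193a-5p lie below 0 in both groups.

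Each of the 4 slide columns held 1 IRI and 1 sham array, which gives a difference within each column. Within columns 1 to 4, scaled miR-193a-3p changed by -0.54, -0.77, -0.95 and -0.68 on the log2 scale, and miR-365-3p by -0.65, -0.73, -0.82 and -0.67. Their 4 columns all gave lower IRI signals of similar size. miR-193b-3p was less even, with log2 differences of -0.25, -0.15, -0.89 and -0.52 in columns 1 to 4. Its values rested most on column 3, which held the sham array with its highest signal. miR-193a-5p, with floored values, gave -0.34, -0.72, -1.18 and -0.51 in the same columns.

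Without any scaling between arrays, the fitted changes of all 4 miRNAs were smaller in size. Unscaled miR-193a-3p signals were 997, 787, 683 and 691 in IRI kidneys 1, 2, 3 and 18, against 1240, 1052, 1060 and 888 in sham kidneys 1, 2, 3 and 6. Unscaled miR-365-3p signals were 639, 550, 474 and 472 in the IRI kidneys, against 857, 716, 671 and 601 in the sham kidneys in the same order. For both, IRI 1 then lay above sham 6, and 0 of the 4 miRNAs kept the groups apart. Within columns, unscaled miR-193a-3p still differed by -0.63 to -0.32 and miR-365-3p by -0.50 to -0.35 on the log2 scale, lower in IRI in 4 of 4 columns each. Unscaled miR-193b-3p was lower in IRI in 3 of 4 columns and higher in IRI in column 2, with a log2 difference of 0.20. Unscaled miR-193a-5p differed by -0.11, -0.41, -1.83 and -0.63 in columns 1 to 4. These values were taken without the floor, so they are not the same measure as its floored scaled differences. They were larger in size than those in columns 3 and 4 and smaller in columns 1 and 2. The unscaled log2 changes were -0.43 for miR-193a-3p, -0.41 for miR-365-3p and -0.15 for miR-193b-3p, and none of the 4 miRNAs passed the adjusted p of 0.05. Without scaling, the median change of all tested miRNAs was 0.17. Relative to that median, miR-193a-3p stood at -0.60 and miR-365-3p at -0.58, against -0.62 and -0.60 relative to the median with scaling. Scaling by a factor per array shifts every miRNA above the floor alike. The closeness of these values was thus fixed in advance and is no separate check.

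**Figure D3:**
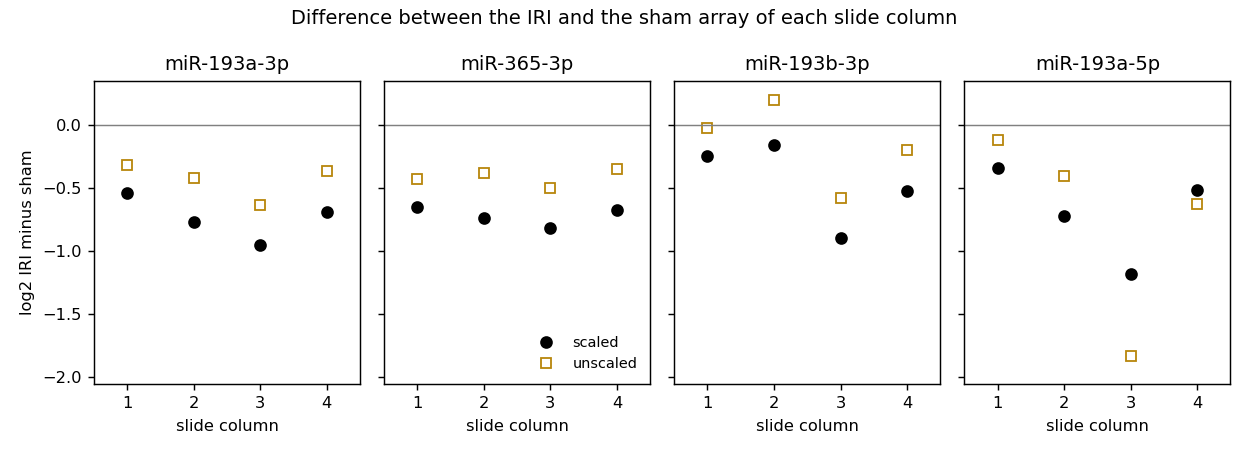
Log2 difference of the IRI array minus the sham array in each of the 4 slide columns, for scaled signals (black circles) and unscaled signals (open squares). Scaled signals were raised to the floor and unscaled signals were not, so the circles and squares of miR-193a-5p are unlike measures. Scaled differences are below 0 in all 4 columns for all 4 miRNAs, while unscaled miR-193b-3p reaches 0.20 in column 2.

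The members were also compared with each other, through the log2 ratio of a pair of them on the same array, in which array scaling cancels. The change of miR-193a-3p minus that of miR-365-3p was -0.02, with an SD of the ratio of 0.06 within IRI and 0.06 within sham. This pair thus held nearly the same ratio on all 8 arrays. Ratios with miRNAs outside the members were not taken, and the array cannot tell the sources of miR-365-3p apart. The change of miR-193a-3p minus that of its seed partner miR-193b-3p was -0.28, with an SD of the ratio of 0.20 within IRI and 0.11 within sham. The ratios of IRI and sham arrays overlapped, so the larger drop of miR-193a-3p did not separate the groups. miR-365-3p minus miR-193b-3p gave -0.26, with an SD of 0.19 within IRI and 0.16 within sham, and the groups again overlapped.

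Over the 8 arrays, the pattern of each member was compared with the 316 other miRNAs detected on all arrays by Pearson's r of log2 scaled signals. The arrays form 2 groups, so r largely follows the group difference, and all points share the array scaling. These values are a description. The closest to miR-193a-3p were miR-107-3p (r = 0.996), miR-103-3p (0.994), miR-365-3p (0.993), miR-93-5p (0.991) and let-7c-5p (0.990). The closest to miR-365-3p were miR-107-3p (r = 0.994), miR-185-5p (0.994), miR-429-3p (0.993), miR-193a-3p (0.993) and miR-103-3p (0.992). miR-107-3p and miR-103-3p, which differ at few bases from each other and lie in introns of pantothenate kinase genes, were in both lists, and miR-107-3p headed both.

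With the group means removed, r over the 8 deviations describes how arrays of the same group differ. For miR-193a-3p, miR-365-3p ranked 3 of 316 (r = 0.958), after miR-107-3p (0.983) and miR-93-5p (0.973) and before miR-103-3p (0.958) and miR-106b-5p (0.945). For miR-365-3p, miR-193a-3p ranked 1 of 316, followed by miR-203-3p (0.939), miR-677-3p (0.938), miR-185-5p (0.932) and miR-93-5p (0.931). The chromosome 16 partner followed miR-365-3p less closely, since r for miR-193b-3p and miR-365-3p was 0.515, at rank 115 of 316. miR-193a-3p and miR-193b-3p, which share a seed and no locus, had r = 0.631 in these deviations, at rank 103 of 316. The spot error of miR-193b-3p also enters these values, and its share in them was not tested.

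miR-193b-3p was closest to miR-23a-3p (r = 0.973), miR-3068-3p (0.966), miR-33-5p (0.954), miR-23b-3p (0.952) and miR-24-3p (0.948) over the 8 log2 signals. In the deviations it was closest to miR-23a-3p (0.965), miR-3068-3p (0.945), miR-23b-3p (0.928), miR-152-3p (0.919) and miR-190a-5p (0.917). miR-23a, miR-23b and miR-24 are members of the paralogous miR-23 and miR-24 clusters. Near-identical miRNAs such as miR-23a-3p and miR-23b-3p may share hybridisation signal. miR-193a-5p was closest to miR-186-5p (0.960), miR-25-3p (0.959), miR-874-3p (0.955), miR-203-3p (0.952) and miR-3068-3p (0.947), and in the deviations to let-7f-5p (0.945), miR-93-5p (0.937), miR-26b-5p (0.932), miR-6995-5p (0.932) and miR-194-5p (0.929). Its 3 IRI values at the floor limit that comparison.

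Other miRNA groups of the kidney were lower on the same arrays, and the members are set beside them here. The median log2 change of the 4 members was -0.70, and over all 379 tested miRNAs the median was -0.11, with quartiles of -0.39 and 0.28. The member median rests in part on miR-193a-5p, with 3 floored IRI values, and it was -0.58 with 2 times the floor. Of 12 listed kidney tubule miRNAs, 11 were tested and all 11 passed the threshold with a lower IRI signal, with a median of -0.47. miR-192-5p and miR-194-5p, which are abundant in tubule epithelium, changed by -0.69 and -0.71, close to miR-193a-3p and miR-365-3p. miR-30a-5p changed by -0.42 and miR-204-5p by -0.47, close to miR-193b-3p. All 9 of the let-7 miRNAs tested were lower, with a median of -0.43 and let-7a-5p at -0.46, and all 5 tested miR-378 miRNAs were lower, with a median of -0.39. Without scaling, log2 changes were below 0 for 10 of the 11 tubule miRNAs (1 called), 7 of the 9 let-7 miRNAs (0 called) and 4 of the 5 miR-378 miRNAs (0 called). The exceptions were miR-30d-5p, let-7e-5p, let-7i-5p and miR-378c, with values above 0 and up to 0.13 (let-7i-5p). Of all 379 tested miRNAs, 130 were below 0 without scaling (1 called lower) and 249 above 0 (53 called higher). Since 36.7% of all tested miRNAs passed as lower with scaling, and each list was chosen with these results known, the counts are a description.

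**Figure D4:**
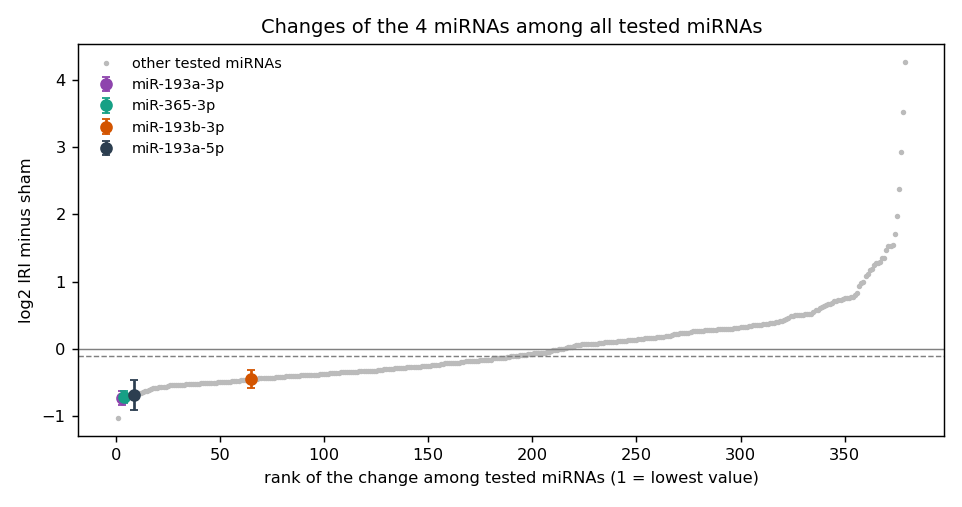
Log2 change (IRI minus sham) of the 379 tested miRNAs in order from the lowest to the highest, with the 4 miRNAs in colour and their standard errors as bars; the dashed line is the median of -0.11. miR-193a-3p and miR-365-3p rank 3 and 4, miR-193b-3p ranks 65, and miR-193a-5p, with 3 floored IRI values, ranks 9.

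Markers of the cells that a kidney sample can hold were read on the same arrays, and their lists did not all move the same way. The summed scaled signal of the 4 tubule markers (miR-192-5p, miR-194-5p, miR-204-5p and miR-30a-5p) was 10072 to 11516 in IRI kidneys and 13971 to 16412 in sham kidneys, and all 4 were lower. Fat around the kidney can be taken along with it. Of the 4 brown fat miRNAs listed, 3 were tested and all 3 were lower, with log2 changes of -0.63 for miR-203-3p, -0.45 for miR-455-3p and -0.61 for miR-455-5p. The fourth, miR-182-5p, was detected on 2 IRI arrays and 1 sham array. This list summed to 226 to 283 in IRI kidneys and 334 to 390 in sham kidneys, and kidney epithelium may also make its miRNAs. Without scaling, the 4 tubule markers and the 3 fat miRNAs still had log2 changes below 0, with medians of -0.28 and -0.30, and 0 of them passed. Of all 379 tested miRNAs, 130 were below 0 without scaling. The part of tubule cells or fat in the lower miR-193 and miR-365 signals was not tested.

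Skeletal muscle can be cut along with a kidney, and 6 muscle miRNAs were listed. miR-1a-3p was detected on all 8 arrays, miR-133b-3p on 0 IRI arrays and 1 sham array, and miR-133a-3p, miR-206-3p, miR-208b-3p and miR-499-5p on 0 of 8. Only miR-1a-3p was tested, and its fitted change of -0.54 is no measured size, since 2 of its 4 IRI values were at the floor. The list summed to 31.2 to 44.1 in IRI kidneys and 44.1 to 57.6 in sham kidneys. For liver, miR-122-5p had a positive call on 1 IRI array and 0 sham arrays. Of 4 leukocyte miRNAs, miR-223-3p passed the threshold as higher, with a log2 change of 1.53. The other 3 did not pass, with changes of 0.29 for miR-142a-3p, 0.19 for miR-142a-5p and -0.57 for miR-150-5p. This list gave sums of 665 to 979 in IRI kidneys and 459 to 620 in sham kidneys. All 3 red blood cell miRNAs (miR-451a, miR-144-3p and miR-486a-5p) passed as higher, with or without scaling, against 12.1% of all tested miRNAs with scaling. Of these, miR-486a-5p was detected on 0 sham arrays, and its 4 sham values were at the floor. miR-144-3p was detected on 2 sham arrays, with 2 sham values at the floor. Both were tested only through their IRI detection calls, so their fitted changes are no measured size and their calls are a description. The red blood cell list gave sums of 2940 to 4087 in IRI kidneys and 43.0 to 902 in sham kidneys. The part of blood RNA in the scaled signals of the 4 miRNAs was not tested.

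**Figure D5:**
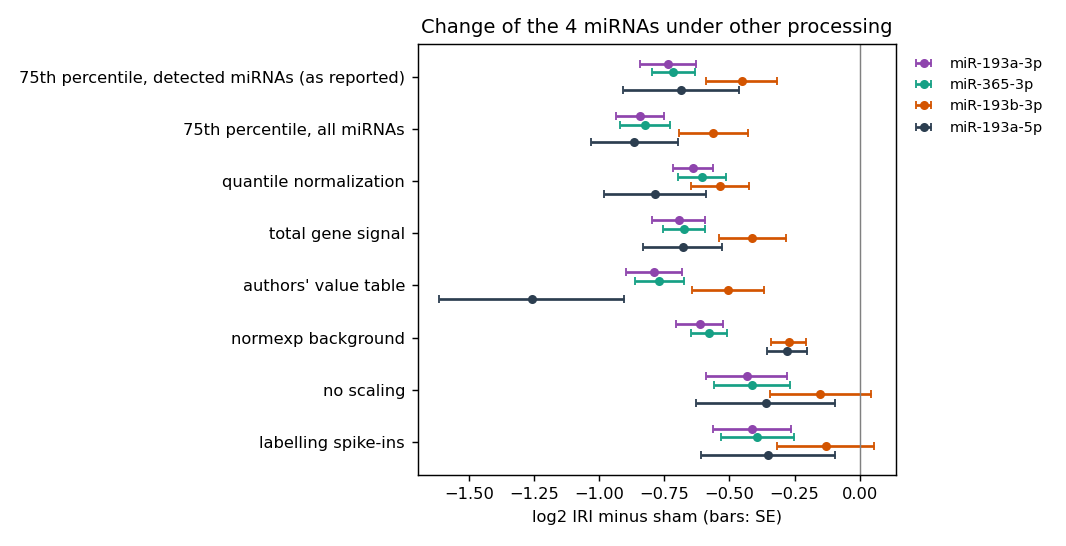
Log2 change (IRI minus sham) of the 4 miRNAs with its standard error under 8 ways of scaling or measuring the arrays, 1 row each, with a line at 0. Every change is below 0, from -1.26 for miR-193a-5p in the authors' value table to -0.13 for miR-193b-3p with labelling spike-ins, and the changes of miR-193a-3p and miR-365-3p lie side by side in each row. Rows that differ only by a factor per array shift both of these changes alike, so their closeness there is no new result.

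The plot of 8 scalings and measures shows how far each size depends on the choice. miR-193a-3p ranged from -0.84 to -0.41 and miR-365-3p from -0.82 to -0.39 on the log2 scale over the 22 alternatives run, and both kept a lower IRI signal in all 22. The call was lost for each in 2 of them, those without scaling and with labelling spike-ins. All alternatives reuse the same arrays, and those that change only the filter, floor, variance model or column block leave these 2 fitted changes as they were. They are thus no independent checks. miR-193b-3p was lower in all 22 and called in 13, with changes of -0.56 to -0.13. miR-193a-5p was lower in all 22 and called in 12, with changes of -1.26 to -0.07.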

How the data were processed

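The members and all lists were chosen with earlier results of these data known. Total RNA from 30 mg of kidney was used, with 100 ng end-labelled with Cy3, per the labels' protocols. The authors deposited linear spot intensity values from Agilent Feature Extraction 12.0.3.1, as the submitters' processing notes state. A background surface was subtracted, spot outliers were marked and arrays were not normalized to each other, per the file headers. The authors' deposited value table holds a ratio per miRNA. Its making is not given in the sources seen here. Differences between its columns followed the scanner's total gene signals (r = 1.00 over 317 miRNAs on every array), so higher means more. Its scale and centring stay unknown, and its column medians were 0.658, 0.646, 1.16 and 0.749 for IRI 1, 2, 3 and 18 and 0.859, 1.23, 1.29 and 1.30 for sham 1, 2, 3 and 6. It served as an alternative.

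Of 56430 spots per array (4415 probes), control spots and 1422 to 1560 marked outliers were left out, and 0 were saturated. Spots of a probe were averaged, probes of a miRNA summed, arrays scaled to their 75th percentile (taken over 317 miRNAs with a positive call on every array), values raised to a floor of 17.3 and taken to log2. The 379 miRNAs detected on every array of either group entered limma 3.58.1 (R 4.3.3; lmFit, eBayes, two-sided, Benjamini-Hochberg, threshold 0.05) without covariates. In all, 185 miRNAs (48.8%) passed, 46 (12.1%) higher and 139 (36.7%) lower in IRI. miRNAs named are the members, the other arms of their hairpins, the 5 most alike miRNAs by either measure, the detected members of the cell type lists and 4 fixed kidney miRNAs; other miRNAs of the muscle, liver and fat lists, and list members that changed direction without scaling, are named after their values were seen. The 4 arrays per group limit the precision. Of the tested miRNAs, 317 of 379 matched the RefSeq miRNA table. The array design was built on mm9, and all coordinates are from GRCm38.p6.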

Additional observations from a re-analysis of the deposited data

How the results depend on the processing

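The members' scaled values rest on 4 arrays per group, on a detection call and on a scaling that assumes a stable 75th percentile. Over all tested miRNAs, 46 passed as higher and 139 as lower in IRI, and the counts of higher and lower miRNAs below are of those that passed. Other scaling moved this split: without scaling 53 were higher and 1 lower, and with labelling spike-ins 75 were higher and 2 lower, while the median of all changes moved from -0.11 to 0.17 and 0.19. Normexp background correction gave 18 higher. Testing all 1881 miRNAs gave 21 higher and 90 lower, where more miRNAs were tested. The median change of the 4 members, -0.70, was -0.39 without scaling, -0.37 with spike-ins and -0.43 with normexp. The change of their summed signal, -0.72, was -0.42 without scaling and -0.40 with spike-ins. The cause of the normexp shift was not tested. Scaling to the 75th percentile of all miRNAs, total gene signal, normexp and the value table kept all 4 members apart between groups, quantile normalization kept 3, and no scaling and spike-ins kept 0. The share of all tested miRNAs with every IRI array below every sham array was worked out for the main scaling only, at 35.9%. Nothing is therefore read from these counts.

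Leaving out each array in turn gave 36 to 64 higher and 114 to 144 lower miRNAs, a member median of -0.80 to -0.63 and a summed change of -0.80 to -0.68. miR-193a-3p then ranged from -0.82 to -0.68, miR-365-3p from -0.77 to -0.68, miR-193b-3p from -0.53 to -0.35 and miR-193a-5p from -0.85 to -0.59. The call of miR-193a-5p was lost without sham 1, sham 3, IRI 2, IRI 3 or IRI 18. The call of miR-193b-3p was lost with the slide column as a block. Replicate numbers 1, 2 and 3 occur in both groups, and same-numbered arrays had correlations of deviations of -0.16, -0.20 and 0.24, so the numbers were not taken to pair samples. With the replicate number as a block, 17 miRNAs were higher and 50 lower, and the members stayed lower. miR-193a-3p (-0.75) and miR-365-3p (-0.73) kept their calls there, while miR-193b-3p (-0.43) and miR-193a-5p (-0.74) did not.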
